A study of Mus musculus with 7 samples.

Results

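The 10 genes described here are core and output genes of the circadian clock (Per1, Per2, Per3, Cry1, Cry2, Clock, Nr1d1, Nr1d2, Dbp and Tef). They were taken as a list of symbols, and all 10 were found by their Ensembl identifiers among the 55414 genes of the count table. Paneth cells (PCs), which fill the bottom of small intestinal crypts with antimicrobial granules, had been purified with a cell sorter from C57BL/6J mice for bulk RNA-seq. The mice had received tumour necrosis factor (TNF), a pro-inflammatory cytokine, or phosphate-buffered saline (PBS) as the control, and all cells were collected 15 h after injection. There were 3 PBS and 4 TNF libraries, each from a different mouse per the series description. The age and sex of the mice, the TNF dose and the clock times of injection and collection are not given in the labels used here, so each value below is a level at a single time after injection.

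The clock is a feedback loop of transcription. The CLOCK and BMAL1 proteins activate genes with E-box sequences, among them the Per and Cry genes, whose products form a complex that represses CLOCK and BMAL1. The nuclear receptors encoded by Nr1d1 and Nr1d2 (REV-ERB alpha and beta) repress Bmal1 and other genes through ROR elements, where the ROR receptors activate. DBP, TEF and HLF are related activators that bind D-box sequences, and NFIL3 represses at the same sequences. The loop runs in most tissues, including the intestinal epithelium, where feeding times help to set its phase.

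Total counts ran from 15511455 to 19193721 per library. Of 14329 genes tested with edgeR, 8543 (59.6%) were differentially expressed genes (DEGs) at an adjusted p under 0.05, with 29.5% of all tested genes higher and 30.1% lower after TNF. With scaling by total counts only, 3142 were higher and 4614 lower (40.5% of calls higher, in place of 49.5%). Marker genes of PCs had summed levels of 169000 to 279000 CPM (counts divided by the TMM-scaled library size) after PBS and of 181000 to 333000 CPM after TNF, with 4 of 9 markers higher and 1 lower. Summed markers of several other cell types lay apart between the groups, while those of goblet cells, leukocytes and erythroid cells overlapped, as did those of PCs. The summed levels after PBS and after TNF were 514 to 667 and 102 to 128 CPM for enterocytes (1 marker higher and 6 lower of 8 tested), 1470 to 2450 and 297 to 745 CPM for tuft cells (7 of 7 lower), 7410 to 14100 and 6790 to 7420 CPM for goblet cells (1 higher and 4 lower of 7), 45.8 to 117 and 19.4 to 32.2 CPM for enteroendocrine cells (3 lower of 7) and 3470 to 4790 and 1970 to 2720 CPM for stem cells (5 lower of 6). Cell cycle genes summed to 469 to 492 CPM and 272 to 345 CPM (2 higher and 3 lower of 6). Leukocyte markers summed to 24.9 to 33.2 CPM and 22.3 to 29.9 CPM (1 higher and 1 lower of 5, with Cd3e at 0 counts). Stromal and endothelial markers summed to 2.29 to 2.72 and 7.98 to 9.96 CPM (1 higher of 1 tested). Erythroid markers reached at most 0.053 CPM, with Hba-a1, Hba-a2, Hbb-bs and Hbb-bt at 0 counts. Mitochondrially encoded mRNAs held 0.394% to 0.585% of counts after PBS and 0.204% to 0.317% after TNF. The part of these differences in the clock gene values was not tested, and in bulk RNA fewer cells of a type and less RNA per cell cannot be told apart.

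Among the 10 clock genes, 5 rose after TNF (Per1, Cry1, Cry2, Nr1d2 and Tef), 2 fell (Nr1d1 and Dbp), and 3 did not pass the test (Per2, Per3 and Clock). All 10 passed the filter on low counts, but Dbp passed it only through the PBS libraries, where it was higher. The share of DEGs among all tested genes was 59.6%, so the count of 7 in 10 is close to that of the transcriptome at large. The median log2 fold change of the 10 genes was 0.5, beside 0.0017 for all genes tested. For 5 genes all TNF libraries lay above all PBS libraries and for 2 all lay below, beside 60.7% of all tested genes with such a separation (29.9% upwards and 30.9% downwards). With a change of at least 2-fold also required, Per1 was higher and Dbp lower, beside 31.6% of all tested genes called (14.4% higher and 17.2% lower).

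**Figure D1:**
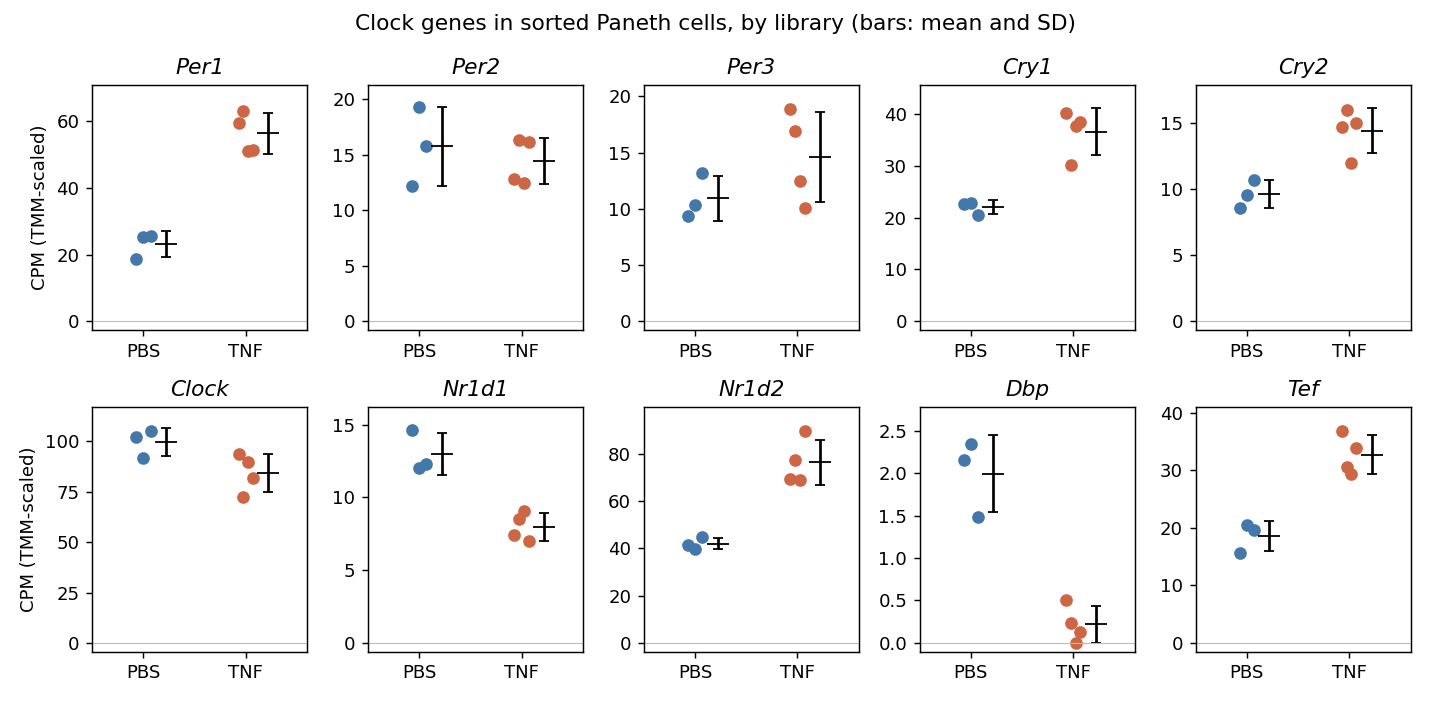
CPM of each clock gene (vertical axis, from 0) in the 3 PBS and 4 TNF libraries, 1 point per library, with the group mean and SD as a bar. Per1, Cry1, Cry2, Nr1d2 and Tef lie higher in every TNF library, Nr1d1 and Dbp lower, and Per2, Per3 and Clock overlap.

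Sequence upstream of the start sites was examined for short motifs. RefSeq promoter windows of GRCm38.p6 were found for 9 of the 10 genes (13 windows, the 250 bases before each start), and Per2 had no entry. Searched on both strands, the E-box CACGTG was found in 1 of 2 windows of Per1, in the window of Cry1 and in both windows of Tef, and in 6.02% of 32851 windows of all genes. It was not found for Cry2 and Nr1d2, which also rose, and windows of Nr1d2, Dbp and Clock held none of the motifs searched. The variant E-box CACGTT was found for Cry1 and Cry2, which rose, and for Nr1d1, which fell (3.85% of all windows). The D-box (TTACGTAA or TTATGTAA) was found only in the Per3 window among these genes, where it occurred 2 times (0.931% of all windows). No window of the 10 genes held the ROR element core TAGGTCA or TGGGTCA (5.38% of all windows) or the cyclic AMP response element TGACGTCA (1.55%). The motifs as searched do not overlap each other's matches in these windows, and a match describes the letters only. Sequence outside the windows was not searched, and the part of any motif in the directions of change was not tested. The windows below are those of 3 genes with the E-box, of Nr1d1, which fell, and of Per3 with its D-boxes, written 5′ to 3′ with the matches in capitals.
Per1 chr11:69098699-69098948 (plus strand): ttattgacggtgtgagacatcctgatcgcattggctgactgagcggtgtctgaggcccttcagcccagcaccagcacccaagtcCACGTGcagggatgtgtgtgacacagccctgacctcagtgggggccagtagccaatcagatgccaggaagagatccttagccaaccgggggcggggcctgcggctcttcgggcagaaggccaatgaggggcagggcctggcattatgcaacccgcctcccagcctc
Cry1 chr10:85185055-85185304 (minus strand): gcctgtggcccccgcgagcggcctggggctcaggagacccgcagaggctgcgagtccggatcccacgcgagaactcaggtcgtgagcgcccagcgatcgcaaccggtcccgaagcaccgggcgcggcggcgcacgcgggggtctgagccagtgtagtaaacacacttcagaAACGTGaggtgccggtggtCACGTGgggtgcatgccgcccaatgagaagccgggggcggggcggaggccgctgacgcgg
Tef chr15:81802423-81802672 (plus strand): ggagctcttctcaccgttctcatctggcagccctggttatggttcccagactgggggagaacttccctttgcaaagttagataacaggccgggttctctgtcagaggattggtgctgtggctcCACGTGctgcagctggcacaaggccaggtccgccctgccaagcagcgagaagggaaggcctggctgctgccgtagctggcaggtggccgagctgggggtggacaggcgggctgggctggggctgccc
Nr1d1 chr11:98775378-98775627 (minus strand): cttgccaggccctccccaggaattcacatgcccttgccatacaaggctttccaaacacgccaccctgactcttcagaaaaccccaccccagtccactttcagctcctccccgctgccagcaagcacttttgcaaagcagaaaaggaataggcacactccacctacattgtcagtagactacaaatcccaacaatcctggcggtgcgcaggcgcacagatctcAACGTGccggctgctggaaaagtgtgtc
Per3 chr4:151044666-151044915 (minus strand): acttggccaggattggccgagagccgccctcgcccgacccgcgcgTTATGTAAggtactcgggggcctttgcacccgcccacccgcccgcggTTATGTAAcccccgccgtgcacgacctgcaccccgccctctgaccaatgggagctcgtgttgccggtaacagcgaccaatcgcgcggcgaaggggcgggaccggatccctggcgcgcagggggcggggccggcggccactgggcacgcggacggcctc

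The Per genes encode the PER proteins of the repressor complex, and of these genes Per1 passed the test while Per2 and Per3 did not. Per1 (ENSMUSG00000020893, GRCm39 chromosome 11, 68986035 to 69002300) had 18.8, 25.2 and 25.5 CPM in the PBS libraries and 59.6, 63.2, 51.2 and 51.3 CPM in the TNF libraries. The groups were far apart, and no other of the 10 genes rose as much. Mean levels were 23.2 ± 3.79 CPM after PBS and 56.3 ± 6.06 CPM after TNF (SD, n = 3 and 4), with log2 fold change 1.28 ± 0.14 SE and edgeR adjusted p = 2.66e-06. Across all genes tested, 25.3% had a larger absolute log2 fold change.

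Per2 (ENSMUSG00000055866, chromosome 1, 91343700 to 91387069) had 12.2, 19.3 and 15.8 CPM after PBS and 12.8, 16.3, 12.5 and 16.2 CPM after TNF. The TNF values lay inside the range of the PBS values. Its log2 fold change was -0.13 ± 0.18 (SE, 95% interval -0.52 to 0.26, edgeR adjusted p = 0.553), and the sign turned without PBS replicate 2, the highest library (0.04). Per3 (ENSMUSG00000028957, chromosome 4, 151081373 to 151129140) had 9.33, 10.3 and 13.2 CPM after PBS and 18.9, 16.9, 12.5 and 10.1 CPM after TNF. TNF replicates 1 and 2 were above every PBS library, and TNF replicates 3 and 4 were within the PBS range. The log2 fold change of Per3 was 0.42 ± 0.22 (SE, 95% interval -0.05 to 0.89, adjusted p = 0.116), and it passed the test without TNF replicate 4, the lowest (0.54, adjusted p = 0.0404).

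Cry1 and Cry2 encode the cryptochromes, the partners of PER in repression, and both rose. Cry1 (ENSMUSG00000020038, chromosome 10, 84967560 to 85021252) had 22.7, 22.9 and 20.6 CPM after PBS and 40.2, 30.1, 37.8 and 38.5 CPM after TNF. The PBS values were close together, and TNF replicate 2 was the lowest of its group. The mean of Cry1 rose from 22.1 ± 1.24 CPM to 36.6 ± 4.5 CPM (SD, n = 3 and 4), with log2 fold change 0.73 ± 0.13 SE and edgeR adjusted p = 0.000223. Cry2 (ENSMUSG00000068742, chromosome 2, 92233894 to 92264474) had 8.59, 9.57 and 10.7 CPM after PBS and 14.7, 16, 12 and 15 CPM after TNF. The groups were separated by a gap smaller than the range of the TNF values. Cry2 rose with log2 fold change 0.58 ± 0.17 SE and edgeR adjusted p = 0.00808. The call for Cry2 was lost with scaling by total counts only (0.40, adjusted p = 0.135), a scaling that shifted the median over all genes from 0.0017 to -0.16.

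Clock, which encodes the DNA-binding partner of BMAL1, had 102, 91.8 and 105 CPM after PBS and 93.8, 72.3, 90 and 81.8 CPM after TNF (ENSMUSG00000029238, chromosome 5, 76342860 to 76452846). Only TNF replicate 1 reached into the PBS range. The log2 fold change was -0.24 ± 0.11 (SE, 95% interval -0.47 to 0.00, edgeR adjusted p = 0.0812), and without TNF replicate 1 it was -0.29 and passed the test (adjusted p = 0.0343). Of the exon bases of Clock, 11.9% are shared with Tmem165 on the other strand, which rose with log2 fold change 0.73 ± 0.13 SE and edgeR adjusted p = 0.000177.

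The REV-ERB genes moved in opposite directions. Nr1d1 (ENSMUSG00000020889, chromosome 11, 98658752 to 98666188) had 14.6, 12 and 12.3 CPM after PBS and 7.39, 8.49, 9.05 and 7 CPM after TNF. Every TNF library was below every PBS library. Mean levels were 13 ± 1.45 CPM after PBS and 7.98 ± 0.95 CPM after TNF (SD, n = 3 and 4), with log2 fold change -0.70 ± 0.18 SE and edgeR adjusted p = 0.00334. Nr1d2 (ENSMUSG00000021775, chromosome 14, 4230545 to 4266624) had 41.4, 39.9 and 44.8 CPM after PBS and 69.3, 77.2, 69 and 89.7 CPM after TNF. The lowest TNF library was well above the highest PBS library, and TNF replicate 4 was the highest. Nr1d2 rose from 42 ± 2.53 CPM to 76.3 ± 9.68 CPM (SD, n = 3 and 4), with log2 fold change 0.86 ± 0.12 SE and edgeR adjusted p = 2.47e-05.

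The D-box activators likewise moved apart. Dbp (ENSMUSG00000059824, chromosome 7, 45354512 to 45359627) had 35, 46 and 28 counts in the PBS libraries and 9, 4, 0 and 2 counts in the TNF libraries. These are the lowest counts of the 10 genes, and 1 TNF library held none, which allows up to 0.161 CPM (3 counts, counting error only). In CPM the values were 2.16, 2.34 and 1.48 after PBS and 0.504, 0.236, 0 and 0.131 after TNF. Dbp fell by 3.15 ± 0.71 on the log2 scale (SE, 95% interval -4.69 to -1.62, edgeR adjusted p = 0.00167), and the log2 fold change was -3.99 without TNF replicate 1, which held most of the counts after TNF. Dbp was tested only because its PBS libraries met the minimum count (3 of 3, and 0 of 4 after TNF), and 2 of the 4 TNF libraries held under 3 counts, so the size of the fall is uncertain. Tef (ENSMUSG00000022389, chromosome 15, 81686622 to 81711064) had 15.6, 20.4 and 19.6 CPM after PBS and 36.8, 30.6, 29.3 and 33.9 CPM after TNF. All 4 TNF libraries were higher, and the log2 fold change was 0.82 ± 0.14 (SE, edgeR adjusted p = 0.000157).

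**Figure D2:**
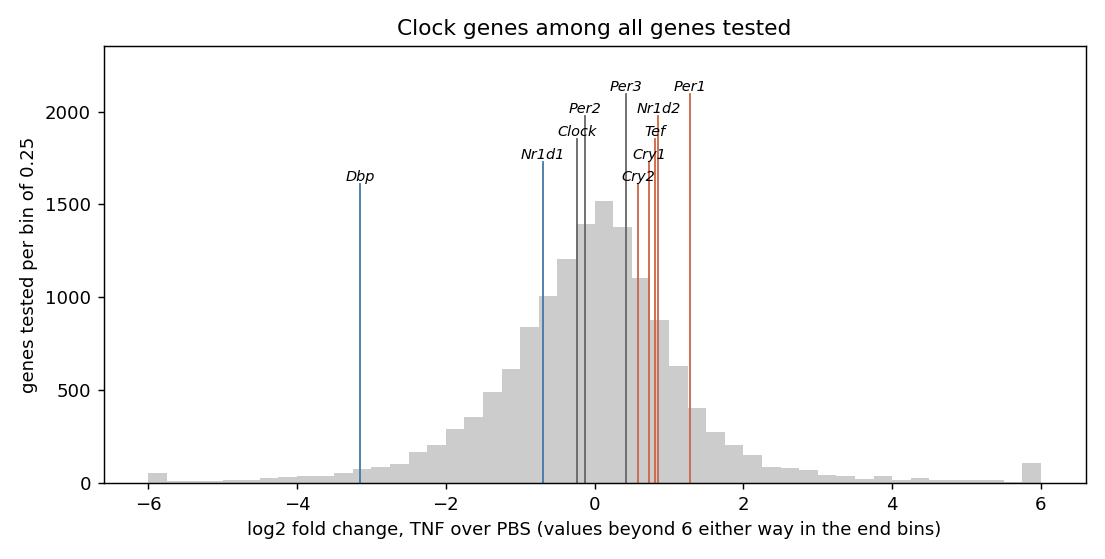
Number of tested genes per bin of 0.25 in log2 fold change, TNF over PBS (grey bars, values beyond 6 in either direction put in the end bins), with the 10 clock genes as vertical lines (red called higher, blue called lower, dark grey not called). Dbp at -3.15 lies in the lower tail, Per1 at 1.28 on the upper flank, and the other 8 lie between -0.70 and 0.86.

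Both genes that fell overlap another gene on the opposite strand. Whether counting used strand is not stated in the labels, so reads from the shared bases of such pairs cannot be told apart. Of the exon bases of Nr1d1, 52.3% are shared with Thra, which encodes thyroid hormone receptor alpha. Thra had 40.9, 51.3 and 48.6 CPM after PBS and 10.3, 9.78, 14.3 and 12.8 CPM after TNF, with log2 fold change -1.99 ± 0.15 SE and edgeR adjusted p = 9.22e-08. Thra therefore fell in every TNF library, and Nr1d1 counts stood at 23.4% to 35.9% of Thra counts after PBS and at 54.9% to 86.7% after TNF. Of the exon bases of Dbp, 15.5% are shared with Sphk2, which encodes a sphingosine kinase. Sphk2 had 86.9, 90.8 and 84.8 CPM after PBS and 29.2, 23.4, 21 and 23 CPM after TNF, with log2 fold change -1.86 ± 0.12 SE and edgeR adjusted p = 2.18e-08. Dbp counts were 1.75% to 2.58% of Sphk2 counts after PBS and 0% to 1.73% after TNF. The part of either overlap in the falls of Nr1d1 and Dbp was not tested. Such overlaps were not limited to the genes that fell. Clock shared 11.9% of its exon bases with Tmem165. Genes overlapping Per1, Per2, Per3, Cry2, Nr1d2 and Tef shared at most 11.1% of the member's exon bases each, and Cry1 overlapped none.

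**Figure D3:**
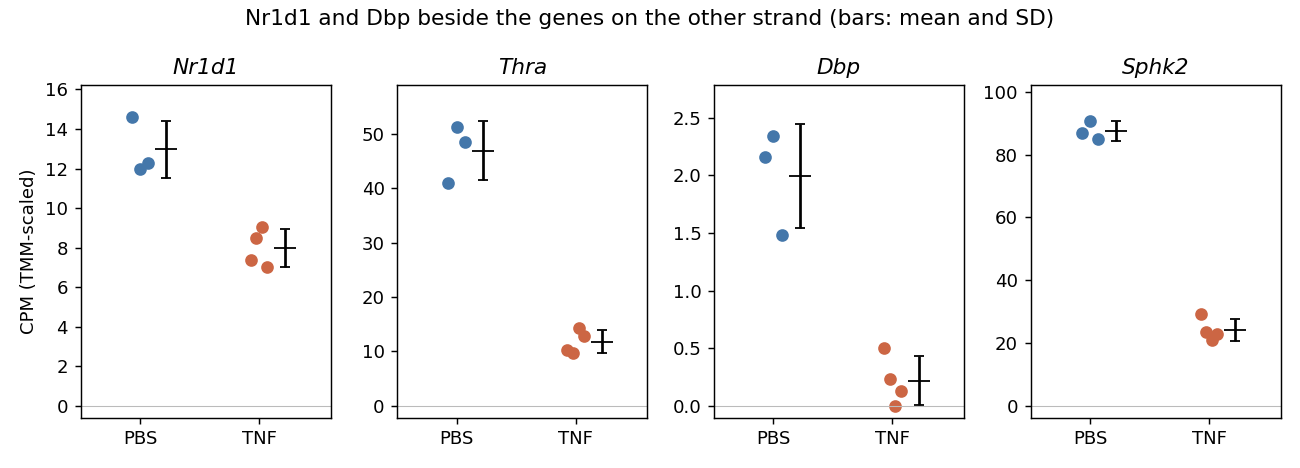
CPM (vertical axes, from 0) of Nr1d1 and Dbp beside Thra and Sphk2, the genes that overlap them on the opposite strand, 1 point per library with the group mean and SD as a bar. All 4 genes are lower in every TNF library, with Thra from 46.9 to 11.8 CPM and Sphk2 from 87.5 to 24.1 CPM on average.

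Differences between paralogues were examined through the log2 ratio of their counts within each library, which does not depend on library scaling (0.5 was added to each count). The 6 possible paralogue pairs were chosen after the values of single genes were known, so the ratios are described and no p-value is given for them. Per1/Per2 was 0.62, 0.38 and 0.69 after PBS and 2.21, 1.95, 2.03 and 1.66 after TNF. The ratio was higher in all TNF libraries, by 1.40 on average. Per1/Per3 was also higher in all TNF libraries, with a mean of 1.08 ± 0.18 after PBS and 1.98 ± 0.28 after TNF (SD, n = 3 and 4). Nr1d1/Nr1d2 went from -1.70 ± 0.18 to -3.25 ± 0.31 and Dbp/Tef from -3.21 ± 0.44 to -7.69 ± 1.73 (SD, n = 3 and 4). Both were lower in all TNF libraries, which the separation of their members in opposite directions fixes. The size of the Dbp/Tef difference depends on the added 0.5, because of the TNF library without Dbp counts, and Nr1d1 and Dbp carry the overlaps given above.

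Cry1/Cry2 was 1.4, 1.25 and 0.94 after PBS and 1.45, 0.91, 1.65 and 1.36 after TNF. The groups overlapped, with a mean difference of 0.14 that ran from 0.01 to 0.29 when each library was left out in turn. Per2/Per3 overlapped as well, with a mean difference of -0.50.

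**Figure D4:**
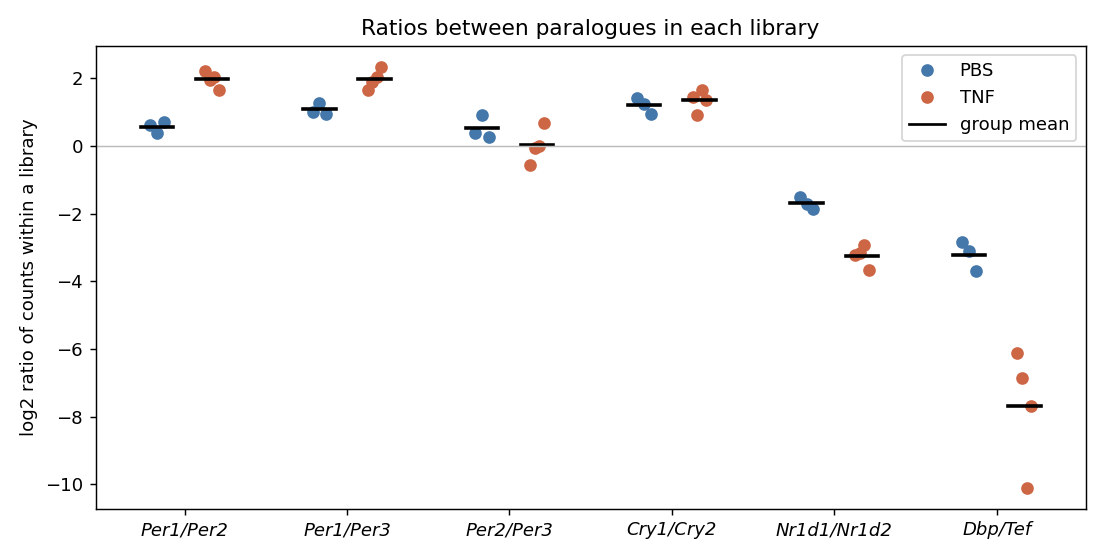
Log2 ratio of the counts of 2 paralogues within each library (vertical axis) for 6 pairs, 1 point per library (blue PBS, red TNF), with group means as lines. The groups are apart for Per1/Per2, Per1/Per3, Nr1d1/Nr1d2 and Dbp/Tef and overlap for Per2/Per3 and Cry1/Cry2.

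To compare levels between genes, CPM was divided by exon length in kilobases (all annotated exons merged). After PBS the order of mean levels per kilobase was Clock (5.77), Nr1d2 (4.64), Cry1 (4.43), Nr1d1 (4.01), Per1 (3.02), Per2 (2.41), Tef (2.24), Cry2 (1.12), Per3 (1.04) and Dbp (0.575). Neighbours whose libraries overlapped were Nr1d2 with Cry1, Cry1 with Nr1d1, Per1 with Per2, Per2 with Tef, and Cry2 with Per3. After TNF the order was Nr1d2 (8.43), Cry1 (7.36), Per1 (7.36), Clock (4.9), Tef (3.95), Nr1d1 (2.46), Per2 (2.2), Cry2 (1.68), Per3 (1.39) and Dbp (0.0627) in CPM per kilobase. Here the overlapping neighbours were Nr1d2 with Cry1, Cry1 with Per1, Clock with Tef, Nr1d1 with Per2, and Cry2 with Per3. Clock thus stood first after PBS and Nr1d2 after TNF, and Dbp was last in both groups, also when the length of the canonical transcript was used instead. With that length Tef (4.36) was ahead of Per1 (3.46) and Per2 (2.71) after PBS, and its libraries overlapped those of Per1. After TNF, Clock (8.52) was then ahead of Per1 (8.42), and Cry2 (3.49) was ahead of Nr1d1 (2.93) and Per2 (2.48 CPM per kilobase), where the libraries of Clock overlapped those of Per1 and the libraries of Cry2 those of Nr1d1.

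The wider list of 22 clock genes (partners, regulators and outputs) held 7 genes that rose and 7 that fell of 20 tested, a share of 70% beside the 59.6% of all tested genes, with a median log2 fold change of -0.04. Rorb and Bhlhe41 were not tested, with 1 count and 0 counts over all libraries. The positive arm had 0 of 3 genes called by edgeR at the adjusted threshold, none of them with an unadjusted p under 0.05, and likewise 0 of 3 by DESeq2. Bmal1 (Arntl), the partner of CLOCK, had 30.8, 28.9 and 29 CPM after PBS and 31.6, 26.1, 28.4 and 28.6 CPM after TNF. These values overlapped, with a log2 fold change of -0.04 ± 0.11 (SE, 95% interval -0.29 to 0.20, edgeR adjusted p = 0.755). Npas2, a relative of Clock, had a log2 fold change of -0.04 ± 0.20 (95% interval -0.47 to 0.38) and Bmal2 of -0.36 ± 0.31 (95% interval -1.03 to 0.31).

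Rora, which encodes a receptor that activates at the elements where the REV-ERB proteins repress, had 32.6, 19.6 and 18 CPM after PBS and 70.2, 59.1, 62.8 and 72.9 CPM after TNF. The groups were far apart, with log2 fold change 1.50 ± 0.18 SE and edgeR adjusted p = 1.55e-05.

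Nfil3, the D-box repressor, had 11.2, 9.77 and 10.4 CPM after PBS and 40.4, 51.3, 41.6 and 60.9 CPM after TNF. It rose the most of the 20 tested genes, with log2 fold change 2.21 ± 0.16 SE and edgeR adjusted p = 7.01e-08. Hlf, the remaining D-box activator, had 11, 8 and 15 counts after PBS and 16, 0, 0 and 0 after TNF. Only TNF replicate 1 held any of its counts after TNF, and Hlf did not pass the test (log2 fold change -1.43 ± 1.12, edgeR adjusted p = 0.291). Among repressors at E-boxes, Bhlhe40 rose from 124 ± 3.57 to 213 ± 19.9 CPM (SD, n = 3 and 4, log2 fold change 0.78 ± 0.11). Ciart, a repressor of CLOCK and BMAL1, rose from 32 counts over the PBS libraries to 116 over the TNF libraries (1.52 ± 0.55, edgeR adjusted p = 0.028). For Ciart 2 of 3 PBS libraries and all 4 TNF libraries met the minimum count, and leaving out PBS replicate 2, PBS replicate 3 or TNF replicate 2 ended its call (1.68, 1.16 and 1.26).

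Genes for kinases and for turnover of PER and CRY moved in both directions, with 2 of 7 higher and 3 lower, beside 29.5% and 30.1% of all tested genes. Csnk1e, a casein kinase of PER, rose with log2 fold change 0.81 ± 0.11 SE and edgeR adjusted p = 2.6e-05, whereas Csnk1d had 0.18 ± 0.10 and did not pass (adjusted p = 0.115). Fbxl21, an F-box gene for ubiquitination of CRY, fell from 9.52 ± 4.06 to 2.39 ± 0.591 CPM (SD, n = 3 and 4). Of the F-box genes for PER, Fbxw11 rose from 66.3 ± 6.05 to 138 ± 11 CPM, and its paralogue Btrc fell from 21.5 ± 1.46 to 11.5 ± 1.32 CPM. Usp2, which encodes a deubiquitinase, fell by 0.67 ± 0.18 on the log2 scale, and Gsk3b did not pass (0.06 ± 0.10). The cell cycle kinase gene Wee1 and the deadenylase-like gene Noct, both clock outputs, fell by 0.75 ± 0.13 and 1.14 ± 0.19. Of other partners, Wdr5 rose (0.81 ± 0.11), and Nono and Timeless fell by 0.78 ± 0.11 and 0.98 ± 0.33. The highest edgeR adjusted p among the called genes of this paragraph was 0.02, for Timeless, whose call was lost without PBS replicate 1 (-0.91, adjusted p = 0.0629).

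**Figure D5:**
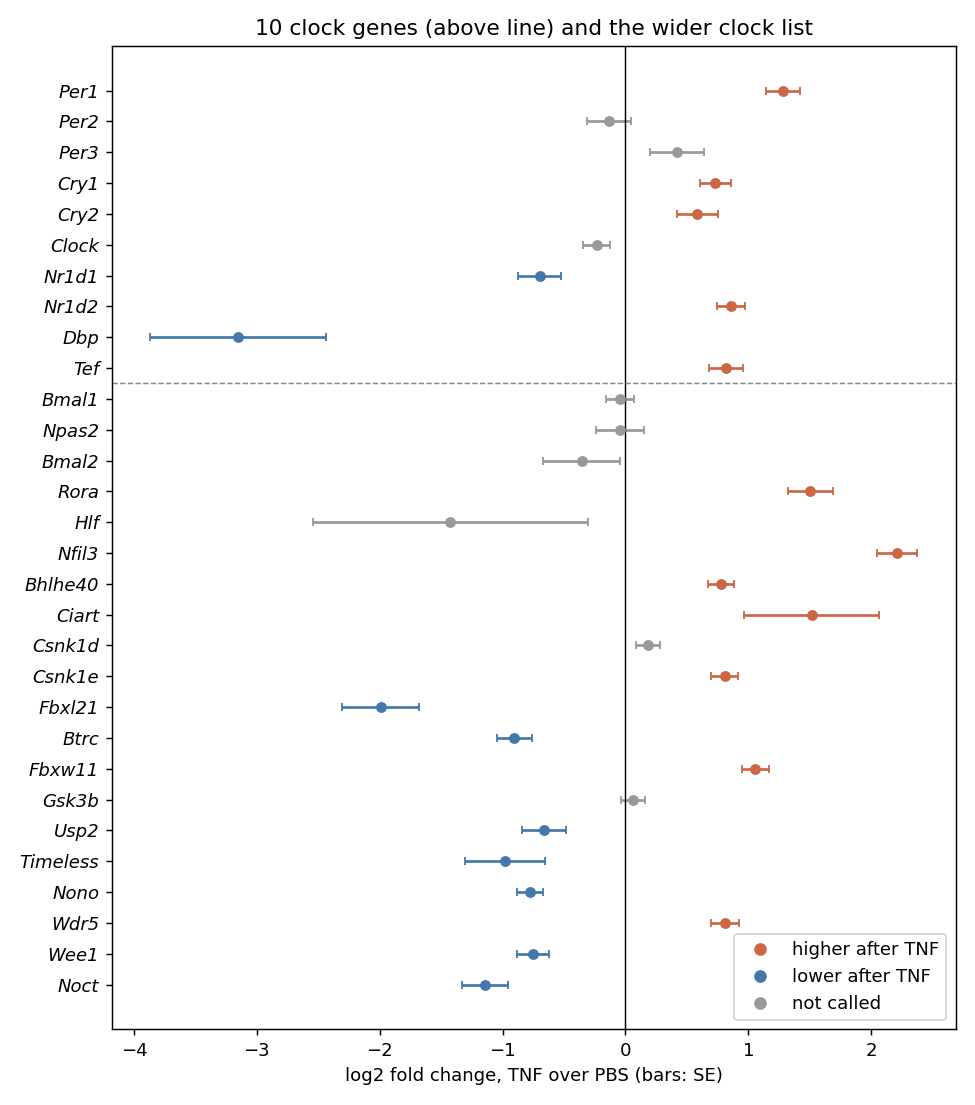
Log2 fold change, TNF over PBS (horizontal axis), with SE as bars for the 10 clock genes (above the dashed line) and the 20 tested genes of the wider list (red called higher, blue called lower, grey not called). Nfil3 at 2.21 and Rora at 1.50 are to the right, Dbp at -3.15 and Fbxl21 at -1.99 to the left, and Bmal1 and Npas2 lie at -0.04.

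Genes with a similar pattern were sought among 8431 tested genes whose mean level reached 10 CPM. Genes without a symbol, or with a symbol of Gm and a number or ending in Rik, were left out. Those most like Per1 over the 7 libraries were Vill, Fhip1b and Card14 (Pearson r of log2 CPM 0.9969, 0.9959 and 0.995), with log2 fold changes of 2.53, 0.80 and 2.79. Those most like Dbp were Prcp, Acsf2 and Gramd4 (r = 0.9925, 0.9898 and 0.9897), with log2 fold changes of -0.58, -1.07 and -1.21. These values are descriptions over libraries that fall into 2 groups.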

How the data were processed

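Raw counts of reads per gene, as whole numbers with 1 column per library, were deposited by the authors. Per the submitters' processing notes, FastQC, Trimmomatic 0.39, STAR 2.7.10a and DESeq2 were used, and the builds mm10 and mm39 are named. How reads were assigned to genes, with which annotation and whether by strand, is not stated there. Symbols, coordinates and exon lengths were taken by identifier from GENCODE M39 on GRCm39 (98.8% of 55414 identifiers found), and promoter sequences from RefSeq on GRCm38.p6. Genes were filtered with filterByExpr (minimum count 10), scaled by TMM (a trimmed mean of log ratios) and tested by quasi-likelihood F-tests in edgeR 4.0.16 under R 4.3.3 (robust, two-sided, no covariates), with Benjamini-Hochberg adjustment over all 14329 genes and a threshold of 0.05. SEs came from the fitted change and its F statistic. Total counts of 15511455 to 19193721 per library leave genes under 1 CPM with few reads. No 2 libraries of a group differed by sampling noise alone (chi-square per degree of freedom at least 17). The 10 genes are all named, and wider list genes where called or set beside a member. Some clock genes are not reported here and are not in the list of 22. The lists and members were chosen with earlier results of these data known, so lists were described by counts and medians only. For the gene with the largest rise and that with the largest fall, the 3 most similar genes by Pearson r (log2 of CPM plus 0.5) were named. The fit was also run on simulated data in which far fewer genes changed than were called here, so its outcome is not used. The alternatives were DESeq2 1.42.0, 3 other scalings, 2 other filters, a 2-fold minimum, a replicate block and leaving out each library. Thra, Sphk2 and Tmem165 were named after the overlaps were found.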

Additional observations from a re-analysis of the deposited data

Results flagged for a closer look

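Within the TNF group of 4 libraries, the highest and lowest libraries of 30 clock genes were compared with the rest, and chance alone sets a library apart in about 1 in 20 such groups. None of the 10 clock genes had a library that stood apart, and 1 gene of the wider list did. Hlf had 0.895 CPM in TNF replicate 1 and 0 counts in the other TNF libraries.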

How the results depend on the processing

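Over 14 alternatives each (all but the minimum fold), the calls and directions of Per1 (log2 fold change 1.10 to 1.35), Cry1 (0.58 to 0.82), Nr1d1 (-0.85 to -0.60), Nr1d2 (0.68 to 0.90), Dbp (-3.99 to -2.74) and Tef (0.64 to 0.89) stayed as given. Cry2 was no longer called with scaling by total counts only (0.40). Without PBS replicate 2 the value of Per2 was 0.04. Leaving out each library in turn gave -0.28 to 0.04 for Per2, 0.27 to 0.57 for Per3 and -0.29 to -0.16 for Clock, and calls appeared for Per3 without TNF replicate 4 (0.54) and for Clock without TNF replicate 1 (-0.29). In the wider list, uncalled values changed sign for Npas2 (leave-one-out range -0.28 to 0.18, with 0.18, 0.00 and 0.03 without PBS replicate 1, PBS replicate 2 and TNF replicate 1), Bmal1 (-0.10 to 0.00, with 0.00 without TNF replicate 2) and Gsk3b (-0.09 with total counts only). When a change of at least 2-fold was also required, 4530 genes were called (2065 higher and 2465 lower), of the clock genes 1 was higher (Per1) and 1 lower (Dbp), and of the wider list 4 of 20 were higher and 2 lower, beside 14.4% and 17.2% of all tested genes. By construction Cry1 (0.73), Cry2 (0.58), Nr1d1 (-0.70), Nr1d2 (0.86) and Tef (0.82) were then not called. The libraries share replicate numbers without a stated link, and the deviations of same-numbered libraries correlated at -0.37, -0.04 and -0.21, with 0 of 6 libraries closest to their own number. With the replicate number as a block, 7131 genes were called in place of 8543. The block left the calls of the 10 clock genes as they were (Cry2 adjusted p = 0.0496, Per3 adjusted p = 0.0809), and Ciart lost its call (1.53, adjusted p = 0.0815).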
